A study of Mus musculus with 2 samples.

Results

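The genes described here are 7 receptors for lipid and amine mediators of itch and inflammation: Cysltr2 for cysteinyl leukotrienes, Hrh1 for histamine, S1pr1 and S1pr3 for sphingosine 1-phosphate (S1P), and Lpar1, Lpar3 and Lpar5 for lysophosphatidic acid (LPA). They were taken by symbol from the 19059 genes of the deposited count tables, and all 7 were listed with UMIs in both libraries. A UMI is a molecular barcode that stands for 1 captured probe pair. There were 2 libraries, each of dorsal root ganglion cells pooled from cervical levels C2 to C7 of mice given tamoxifen and, per the series text, 3 days of imiquimod, a skin irritant used to model psoriasis. Mice of the Treg_Penk_KO library had the genotype Foxp3 CreER; Penk fl/fl, with an inducible Cre driven by Foxp3, the regulatory T cell gene, and both Penk alleles floxed. Control mice were Foxp3 CreER; Penk fl/WT, with the same Cre and 1 floxed allele. Tissue was fixed in 4% paraformaldehyde. The sample labels describe fixed single cells, where the text of the series speaks of nuclei. Neither says how many mice made up a pool or gives their age or sex. Since each genotype is 1 library, differences between them have no replicate check and are not tested. The 95% intervals below (exact Poisson for levels, exact conditional binomial for ratios, Clopper-Pearson for shares of cells) cover counting error only.

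All 7 genes encode G protein-coupled receptors at the cell surface. Cysteinyl leukotrienes and histamine are released by mast cells and other immune cells, while S1P and LPA are lysophospholipids present in blood plasma and in inflamed tissue. In the mouse dorsal root ganglion, small-diameter neurons that carry itch and pain express several of these receptors, and endothelial cells and glia express S1P and LPA receptors as well.

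The Treg_Penk_KO library held 12053 cells after filtering and 156441497 UMIs as deposited, and the control library held 15690 cells and 259136217 UMIs. Neurons numbered 4760 and 6169, with medians of 8273 and 11481 UMIs per cell, and the other cells numbered 7293 and 9521, with medians of 1168 and 1169 UMIs. Clusters were made without the 21 receptor genes of the 4 families and named for marker genes they carry, so that "-like" after a name means resemblance and no more. In 17 of the 18 classes compared, every marker of the class, or every marker but 1, was higher than in the rest in both libraries; the exception was Trpm8 cold-like neurons, with 3 of 5. Penk itself, the floxed gene, had 4 UMIs in all Treg_Penk_KO cells and 582 in all control cells, and in Trpm8 cold-like neurons 0 and 236. Droplet barcodes found in both libraries numbered 4723, or 39.1% of Treg_Penk_KO and 30.1% of control barcodes. A neuron cluster with both Mrgprd and peptidergic markers held 136 Treg_Penk_KO and 12 control cells, 83.1% of them in such shared droplets. A further 3 neuron clusters carried satellite glia markers among their leading genes and held 264 Treg_Penk_KO and 660 control cells. Results that change without these cells are given both ways.

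Levels are UMIs of a gene per 1000000 UMIs of a class (CPM). Each gene is read by its own probes, so levels are compared between classes for 1 gene and never between genes. The 7 receptors reached their highest levels in 4 classes. Cysltr2 and Hrh1 were highest in Sst/Nppb pruriceptor-like neurons (the itch neurons that carry Nppb, Sst and Il31ra), Lpar3 and Lpar5 in Mrgprd nonpeptidergic-like nociceptors, S1pr1 in endothelial-like cells, and S1pr3 and Lpar1 in non-myelinating Schwann-like cells. For Lpar1 the highest class changed with the clustering, as given below. Of the UMIs of each gene, neurons held 90.9% in Treg_Penk_KO and 88.7% in control cells for Cysltr2, 81.8% and 88.5% for Hrh1, 89.3% and 88.3% for Lpar3, and 89.6% and 88.6% for Lpar5. The neuronal share was lower for the remaining members. It was 61.3% and 61.5% for S1pr3, 47.5% and 47.6% for S1pr1, and 25.3% and 29.2% for Lpar1. With the 18 classes ordered by level, the values of 2 libraries overlapped in 15 of 17 neighbouring pairs for Cysltr2 and in 8 of 17 for Lpar1, with the other members between them, so for every member but Lpar1 most neighbours in the order do not differ beyond their spread.

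**Figure D1:**
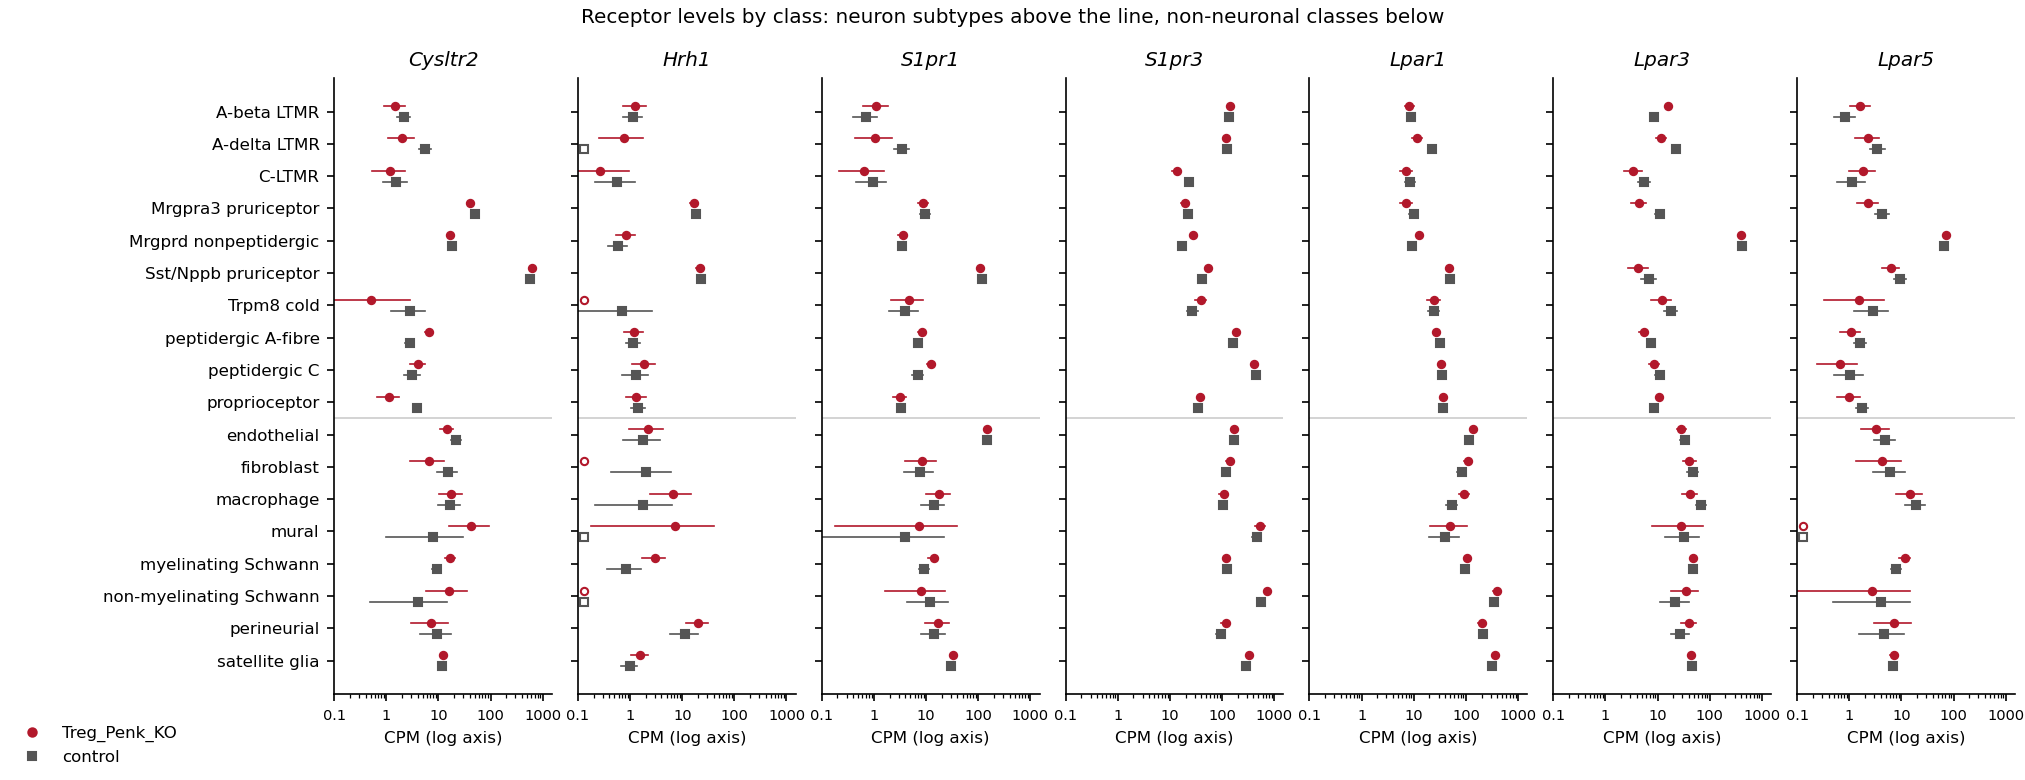
Level of each receptor in 10 neuron subtypes and 8 non-neuronal classes, in CPM on a log axis, with Treg_Penk_KO as red circles and control as grey squares; lines are 95% Poisson intervals and open symbols at the left edge are classes with 0 UMIs. Cysltr2 peaks at 622 and 574 CPM in Sst/Nppb pruriceptor-like neurons and Lpar3 at 397 and 417 CPM in Mrgprd nonpeptidergic-like neurons, while S1pr3 and Lpar1 are spread over glia, vessel cells and several neuron subtypes. The part of glial RNA in the S1pr3 and Lpar1 levels outside glia was not tested.

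Cysltr2 encodes a receptor for cysteinyl leukotrienes that couples to Gq, and leukotrienes acting through it evoke itch in mice. The gene (ENSMUSG00000033470) lies on chromosome 14 at 73263043 to 73286554 on the minus strand of GRCm39. In Sst/Nppb pruriceptor-like neurons there were 3188 Cysltr2 UMIs in Treg_Penk_KO and 3487 in control, which is 622 CPM (600 to 644) and 574 CPM (555 to 593). In Treg_Penk_KO, 78.3% of these 300 neurons had at least 1 Cysltr2 UMI, and in control 81.3% of 358 did. Thinned to 3000 UMIs per cell, which left out shallower cells and kept 195 and 240, the shares were 75.4% and 77.1%. Proprioceptor-like neurons, taken as a class with little of the receptor, had a Cysltr2 UMI in 2.71% of Treg_Penk_KO and 4.40% of control cells, and in 0.915% and 0.862% when thinned.

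These neurons were few but held 67.2% of all Cysltr2 UMIs in Treg_Penk_KO and 58.6% in control. Mrgpra3 pruriceptor-like neurons (chloroquine-responsive itch neurons and their Mrgprb4-positive relatives) had 40.9 CPM (36.7 to 45.4) in Treg_Penk_KO and 51.3 CPM (47.0 to 55.8) in control, and were next in order by the mean of the libraries. Mural-like cells had 6 and 2 UMIs, at 42.995 and 8.05 CPM. Mrgprd nonpeptidergic-like neurons had 16.3 and 18.5 CPM, with a Cysltr2 UMI in 22.6% and 28.6% of cells. The level in non-neuronal cells as a whole was 13.4 CPM in Treg_Penk_KO and 12.5 CPM in control, and the C-LTMR-like neurons (C-fibre touch neurons), lowest of the neuron subtypes in control, had 1.18 and 1.51 CPM. Mast cells, the classical source of the ligand, formed no cluster of their own.

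To see where low Cysltr2 counts stand against stray RNA, they were set beside Nppb, the natriuretic peptide gene that marks the subtype. For every 100 Nppb UMIs, Sst/Nppb pruriceptor-like neurons had 57.0 Cysltr2 UMIs in Treg_Penk_KO and 56.5 in control. Over the 8 non-neuronal classes together the figure was 75.2 and 80.3. In Mrgpra3 pruriceptor-like neurons it was 2059 and 534, with 17 and 100 Nppb UMIs, and in Mrgprd nonpeptidergic-like neurons 212 and 270. Over the remaining 7 neuron subtypes together it was 91.2 and 101, closer to the non-neuronal figure.

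Over all neurons, Cysltr2 stood at 34.7 CPM in Treg_Penk_KO and 25.7 CPM in control, a ratio of 1.35 (1.30 to 1.40). It was 1 of 7 members past the size step in the higher direction in neurons, and 0 of 7 were past it in the lower direction; the step is a difference of at least 0.32 on the log2 scale with at least 100 UMIs in each library. Of all 12580 genes with enough UMIs in neurons, 2% were higher by that step and 2.66% were lower. Within the Sst/Nppb pruriceptor-like neurons the ratio was 1.08 (1.03 to 1.14), and with the 10 named subtypes weighted equally it was 1.05. Sst/Nppb pruriceptor-like neurons supplied 4.13% of all neuronal UMIs in the Treg_Penk_KO library and 2.96% in the control library. Without the neuron clusters that carry satellite glia markers, the ratio over neurons was 1.26. In the Mrgpra3 pruriceptor-like neurons the ratio was 0.797 (0.695 to 0.914).

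Hrh1 encodes the Gq-coupled histamine receptor that mediates histamine itch and also acts on vessels. It (ENSMUSG00000053004, chromosome 6, 114374478 to 114460261, plus strand) was read at low counts throughout, 461 UMIs in all Treg_Penk_KO cells and 590 in all control cells. Of these UMIs, 114 and 140 were in Sst/Nppb pruriceptor-like neurons, at 22.2 CPM (18.3 to 26.7) in Treg_Penk_KO and 23.0 CPM (19.4 to 27.2) in control, with a UMI in 25.7% and 26.3% of cells. Mrgpra3 pruriceptor-like neurons had 142 and 195 UMIs, at 16.6 CPM (14.0 to 19.5) and 18.7 CPM (16.2 to 21.5). The intervals of these subtypes, each taken whole, overlapped in each library, so the order of the whole subtypes is not fixed by the counts. Sst/Nppb pruriceptor-like neurons held 24.7% of all Hrh1 UMIs in Treg_Penk_KO and 23.7% in control, and Mrgpra3 pruriceptor-like neurons held 30.8% and 33.1%.

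The Hrh1 counts in Mrgpra3 pruriceptor-like neurons came almost wholly from 1 of the 2 clusters that make up the subtype. The cluster low in Mrgprb4 (a marker of stroking-sensitive touch neurons), with 1.26 and 4.85 CPM of Mrgprb4, had 140 Hrh1 UMIs in 120 Treg_Penk_KO cells and 191 in 160 control cells. That is 44.1 CPM in Treg_Penk_KO and 40.2 CPM in control, above the 22.2 and 23.0 CPM of Sst/Nppb pruriceptor-like neurons. The cluster high in Mrgprb4, at 2289 and 2075 CPM, had 2 and 4 Hrh1 UMIs in 140 and 168 cells, or 0.371 and 0.706 CPM.

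Cysltr2 had the opposite order in the same cells. It stood at 5.04 CPM in Treg_Penk_KO and 17.1 CPM in control in the Mrgprb4-low cluster, from 16 and 81 UMIs, and at 61.9 and 79.9 CPM in the Mrgprb4-high cluster, from 334 and 453 UMIs. The same split was found when the receptor genes took part in clustering (Hrh1 at 43.5 and 40.1 CPM in the Mrgprb4-low cluster, against 0.380 and 0.737 CPM in the other) and at a finer resolution (44.1 and 37.9 CPM, against 0.377 and 0.720 CPM). The clusters were drawn from the same cells, so this is a description of 2 libraries and not a test. Of the Mrgpra3 clusters, Hrh1 was thus higher in the Mrgprb4-low one and Cysltr2 in the Mrgprb4-high one.

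**Figure D2:**
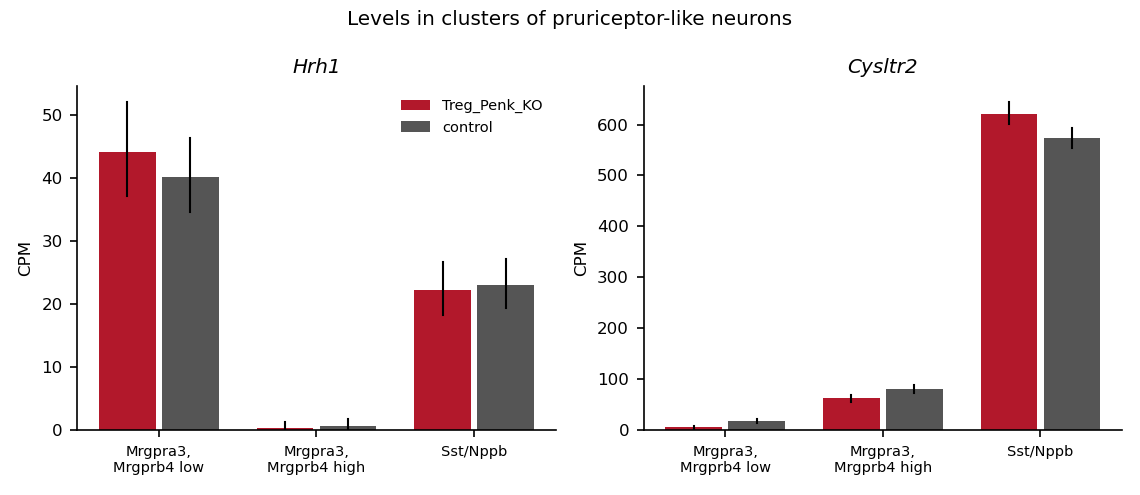
Hrh1 (left) and Cysltr2 (right) in CPM in the 2 clusters of Mrgpra3 pruriceptor-like neurons, low and high in Mrgprb4, and in Sst/Nppb pruriceptor-like neurons; bars are Treg_Penk_KO (red) and control (grey), with 95% Poisson intervals as lines. Hrh1 is at 44.1 and 40.2 CPM in the Mrgprb4-low cluster and under 1 CPM in the Mrgprb4-high cluster, where Cysltr2 is at 61.9 and 79.9 CPM.

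Outside these subtypes Hrh1 had few UMIs. Cells of perineurial-like type, from the sheath around nerve bundles, had 19 UMIs in Treg_Penk_KO and 12 in control, or 19.8 CPM (11.9 to 31.0) and 11.3 CPM (5.83 to 19.7). Non-myelinating Schwann-like cells had 0 UMIs in both libraries, which, taken as 3 counts over the number of cells, allows a Hrh1 UMI in up to 0.958% of the 313 Treg_Penk_KO cells and 0.661% of the 454 control cells. Endothelial-like cells had 8 and 7 UMIs, at 2.18 and 1.78 CPM. Over all neurons the ratio was 1.19 (1.04 to 1.37), and within the Sst/Nppb pruriceptor-like neurons it was 0.965 (0.747 to 1.245). Weighted equally over subtypes, it was 0.953.

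S1pr1 encodes the Gi-coupled S1P receptor that keeps vessels sealed and guides lymphocytes out of lymphoid tissue. The gene (ENSMUSG00000045092) lies on chromosome 3 at 115504071 to 115508721 on the minus strand. It had a pair of separate high classes, a vessel cell and an itch neuron. Endothelial-like cells had 535 UMIs in Treg_Penk_KO and 576 in control, at 145 CPM (133 to 158) and 147 CPM (135 to 159), with a UMI in 45.8% and 40.5% of cells. Sst/Nppb pruriceptor-like neurons had 565 and 707 UMIs, at 110 CPM (101 to 120) and 116 CPM (108 to 125), with a UMI in 51.3% and 58.1% of cells. Next in order came satellite glia-like cells, at 33.5 CPM (31.0 to 36.3) in Treg_Penk_KO and 30.2 CPM (28.4 to 32.1) in control.

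The other neuron subtypes were at 12.5 CPM or less. Mrgpra3 pruriceptor-like neurons had 8.87 and 9.60 CPM, Mrgprd nonpeptidergic-like neurons 3.57 and 3.40 CPM, and C-LTMR-like neurons 0.656 and 0.945 CPM. Thinned to 3000 UMIs, S1pr1 was seen in 22.1% of Treg_Penk_KO and 29.2% of control Sst/Nppb pruriceptor-like neurons and in 0.915% and 0.575% of proprioceptor-like neurons. Among the thinned Sst/Nppb neurons with a Cysltr2 UMI, 23.8% in Treg_Penk_KO and 30.3% in control also had an S1pr1 UMI, and among those without a Cysltr2 UMI 16.7% and 25.5% did. UMIs of both receptors were read in 35 of 195 Treg_Penk_KO and 56 of 240 control cells. Because Cysltr2 was read in 147 and 185 of these cells, much overlap was likely in any case. The counts do not show a link between the receptors. The ratio was 0.991 (0.880 to 1.12) in endothelial-like cells and 1.19 (1.11 to 1.29) over all neurons, where equal weights for the subtypes gave 0.990. In peptidergic C-like neurons, pain fibres that carry Tac1 and Trpv1, S1pr1 had 115 UMIs in Treg_Penk_KO and 75 in control, or 12.5 and 6.98 CPM.

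S1pr3 encodes a receptor that couples to several families of G protein and that has been tied in mice to acute mechanical pain and itch. The gene (ENSMUSG00000067586) lies on chromosome 13 at 51561702 to 51576833 on the plus strand. It was read widely, with a UMI in 39.8% of Treg_Penk_KO and 43.3% of control neurons. Its highest level was in non-myelinating Schwann-like cells, which wrap thin fibres, at 715 CPM (632 to 806) in Treg_Penk_KO and 566 CPM (502 to 636) in control. Mural-like cells of the vessel wall had 545 CPM (429 to 682) and 463 CPM (382 to 556). Satellite glia-like cells, which surround neuron bodies, had 332 CPM (324 to 340) and 282 CPM (277 to 288), and endothelial-like cells had 168 CPM in both libraries. For every 100 UMIs of Fabp7, a satellite glia marker, S1pr3 had 15.4 in Treg_Penk_KO and 16.5 in control in satellite glia-like cells. The figures were 27.4 and 39.9 in endothelial-like cells and 253 and 169 in mural-like cells. The part of glial RNA in these levels was not tested.

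Among neurons, S1pr3 was highest in the peptidergic C-like subtype, at 413 CPM (400 to 427) in Treg_Penk_KO and 446 CPM (433 to 459) in control, with a UMI in 69.8% and 71.9% of cells. Peptidergic A-fibre-like neurons had 183 and 164 CPM, A-beta LTMR-like touch neurons 145 and 139 CPM, and A-delta LTMR-like neurons 117 and 124 CPM. At the low end stood Mrgpra3 pruriceptor-like neurons, at 19.3 and 22.6 CPM, and C-LTMR-like neurons, at 13.4 and 23.2 CPM. Mrgprd nonpeptidergic-like neurons, at 28.2 and 17.3 CPM, were the lowest subtype in control. Between the high and low ends lay the Sst/Nppb pruriceptor-like neurons, at 52.6 CPM (46.6 to 59.3) in Treg_Penk_KO and 41.3 CPM (36.3 to 46.7) in control.

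The A-fibre subtypes were not uniform. Within the peptidergic A-fibre-like neurons, 1 cluster had 376 CPM in Treg_Penk_KO and 335 CPM in control while another had 44.1 and 51.5 CPM. Their summed levels of 7 satellite glia markers were close, 267 and 270 CPM in the first and 272 and 309 CPM in the second. Within the A-beta LTMR-like neurons, S1pr3 stood at 247 and 285 CPM in 1 cluster and at 87.8 and 77.8 CPM in the other. The marker sums in these A-beta LTMR-like clusters were 372 and 518 CPM in the first, and 357 CPM in both libraries in the second, so the cluster higher in S1pr3 was also higher in the markers. Their part in that difference was not tested.

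The S1pr3 ratio over neurons was 1.07 (1.05 to 1.10), and it was 0.927 (0.889 to 0.968) in peptidergic C-like neurons, 1.17 (1.14 to 1.21) in satellite glia-like cells and 1.26 (1.06 to 1.4975) in non-myelinating Schwann-like cells. The largest ratio in a neuron subtype was 1.63 (1.47 to 1.80) in Mrgprd nonpeptidergic-like neurons, from 28.2 CPM in Treg_Penk_KO and 17.3 CPM in control. Without the cluster with both Mrgprd and peptidergic markers it was 1.29, among droplets found in 1 library it was 0.963, and with doublets removed it was 2.84.

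Lpar1 encodes an LPA receptor known from Schwann cells and myelination and needed for LPA-induced pain in mice. The gene (ENSMUSG00000038668) lies on chromosome 4 at 58435250 to 58554635 on the minus strand. Glia held most of it. Non-myelinating Schwann-like cells had 147 UMIs in Treg_Penk_KO and 174 in control, at 392 CPM (331 to 461) and 347 CPM (297 to 402). Satellite glia-like cells had 6831 and 11097 UMIs, at 368 CPM (360 to 377) and 320 CPM (314 to 326), and held 59.5% and 59.4% of all Lpar1 UMIs. The intervals of these glial classes overlapped in the main clustering, and the order depended on the clustering. When the receptor genes took part, satellite glia-like cells came first, at a mean of 517 CPM over the libraries. Non-myelinating Schwann-like cells then had 353 CPM. At a resolution of 1.5 the means were 532 CPM in satellite glia-like and 362 CPM in non-myelinating Schwann-like cells.

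Perineurial-like cells followed at 201 CPM (174 to 232) in Treg_Penk_KO and 214 CPM (188 to 244) in control, and endothelial-like cells at 139 CPM (128 to 152) and 115 CPM (105 to 126). Macrophage-like cells, taken as a class with little of it, had 93.6 CPM (74.6 to 116) and 53.8 CPM (41.3 to 69.0), with a UMI in 11.2% and 7.25% of cells. Thinned to 500 UMIs, a Lpar1 UMI was seen in 19.7% of satellite glia-like cells in both libraries, and in 3.84% of Treg_Penk_KO and 2.37% of control macrophage-like cells. For every 100 Fabp7 UMIs, Lpar1 had 17.1 in Treg_Penk_KO and 18.7 in control in satellite glia-like cells. The figures were 22.75 and 27.35 in endothelial-like, 33.1 and 27.2 in macrophage-like, and 71.5 and 90.5 in perineurial-like cells. The part of glial RNA in the Lpar1 levels of these classes was not tested.

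In neurons Lpar1 moved with glial markers from cluster to cluster. The neuron clusters with glial markers among their leading genes had 95.8 to 120 CPM of Lpar1 in Treg_Penk_KO and 82.7 to 114 CPM in control, at summed satellite glia markers of 3915 to 6120 CPM and 4048 to 5890 CPM. Proprioceptor-like clusters with sums of 293 and 403 CPM in Treg_Penk_KO and 259 and 299 CPM in control had 7.83 and 10.2 CPM and 5.56 and 7.23 CPM of Lpar1. Sst/Nppb pruriceptor-like neurons stood off this line, with 48.2 CPM (42.3 to 54.6) in Treg_Penk_KO and 49.8 CPM (44.4 to 55.8) in control at marker sums of 420 and 462 CPM, and a Lpar1 UMI in 41.0% and 39.7% of cells. A peptidergic C-like cluster had 42.0 and 41.0 CPM at sums of 715 and 684 CPM. The part of glial RNA in the remaining neuronal values was not tested.

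**Figure D3:**
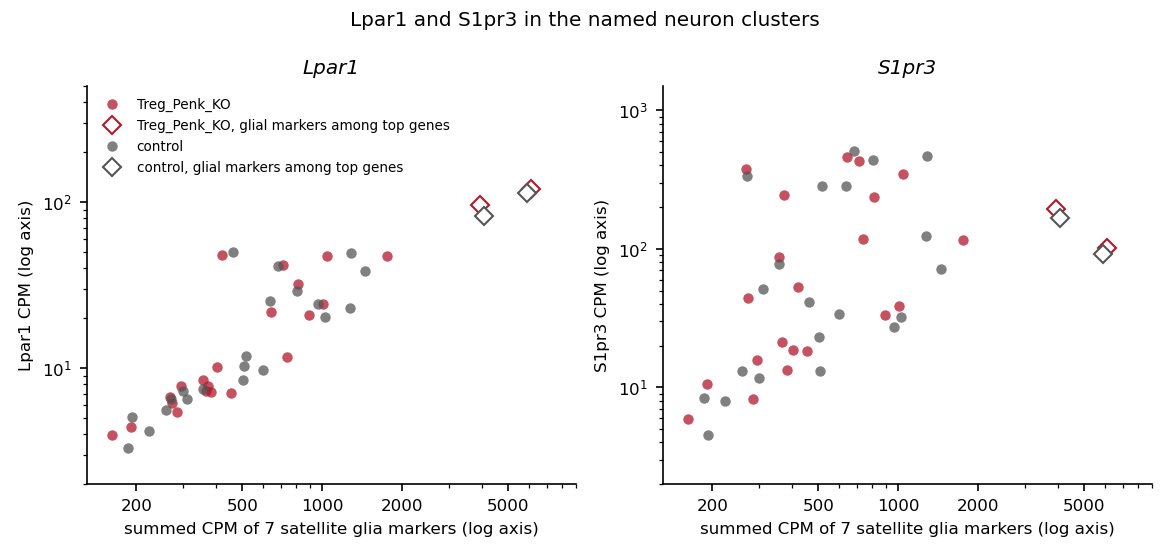
Lpar1 (left) and S1pr3 (right) in CPM in each named neuron cluster against the summed CPM of 7 satellite glia markers, both on log axes; red is Treg_Penk_KO, grey is control, and diamonds are clusters with glial markers among their leading genes. Lpar1 follows the marker sum over most clusters, with Sst/Nppb pruriceptor-like neurons, at 48.2 and 49.8 CPM, above clusters of similar sum. The diamonds are higher in Lpar1. S1pr3 reaches 376 and 335 CPM in a cluster with sums of 267 and 270 CPM.

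Over all neurons the Lpar1 ratio was 0.881 (0.842 to 0.922), from 23.4 CPM in Treg_Penk_KO and 26.6 CPM in control. Without the clusters that carry glial markers, which held 264 Treg_Penk_KO and 660 control cells, it was 1.07. With those clusters kept, it was 1.04 when each cell counted equally and 1.21 when cells were thinned to 500 UMIs. The other settings run gave values between 0.865 and 0.928. What sets the direction was not tested. The summed satellite glia markers over all neurons were 931 CPM in Treg_Penk_KO and 1215 CPM in control. The ratio was 1.15 (1.12 to 1.19) in satellite glia-like cells and 1.13 (0.901 to 1.42) in non-myelinating Schwann-like cells.

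Lpar3 and Lpar5 were both highest in Mrgprd nonpeptidergic-like neurons, the Mrgprd-expressing skin nociceptors whose identity in mice depends on the transcription factor Runx1. Lpar3 is a Gq- and Gi-coupled LPA receptor, and Lpar5 is an LPA receptor linked in mice to LPA-evoked itch. Because these genes peak in the same subtype, the 250 bases before each listed start are shown, with every TGTGGT (a RUNX core motif, searched on both strands as TGTGGT and ACCACA) in capitals. The sequences are from RefSeq on GRCm38.p6, all on the plus strand, read 5′ to 3′ up to the base before the start.
Lpar3 chr3:146220711-146220960: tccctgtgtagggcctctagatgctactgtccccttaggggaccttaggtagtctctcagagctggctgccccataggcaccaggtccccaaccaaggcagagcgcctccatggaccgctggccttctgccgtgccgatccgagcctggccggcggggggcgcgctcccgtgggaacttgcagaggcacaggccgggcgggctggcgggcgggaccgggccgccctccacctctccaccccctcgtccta
Lpar5 first start chr6:125067670-125067919: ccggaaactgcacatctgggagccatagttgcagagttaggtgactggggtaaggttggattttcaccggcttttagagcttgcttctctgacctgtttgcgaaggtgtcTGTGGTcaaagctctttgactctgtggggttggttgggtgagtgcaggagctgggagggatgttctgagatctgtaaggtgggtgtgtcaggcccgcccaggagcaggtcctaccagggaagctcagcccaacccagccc
Lpar5 second start chr6:125071085-125071334: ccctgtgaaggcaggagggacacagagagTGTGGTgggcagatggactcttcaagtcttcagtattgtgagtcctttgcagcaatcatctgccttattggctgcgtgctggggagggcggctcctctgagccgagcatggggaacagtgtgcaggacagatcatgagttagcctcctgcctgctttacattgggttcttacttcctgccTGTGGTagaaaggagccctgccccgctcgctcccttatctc
The Lpar3 window held 0 matches. The Lpar5 windows held 1 match, 140 bases before the start, and 2 matches, 221 and 41 bases before the start. Of all 32851 windows of 250 bases, 14.05% held the motif. A match is a run of letters and not a shown binding site, and a window without it says nothing of Runx1. The GC content was 69.6% in the Lpar3 window and 56% in both Lpar5 windows, against a median of 52.4%. RefSeq windows were found for 6 of the 7 members, 12 windows in all. Among the windows not shown, the motif was also found 189 bases before a start of Lpar1, a gene highest in glia.

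Lpar3 (ENSMUSG00000036832, chromosome 3, 145926691 to 145991969 on the plus strand of GRCm39) had 10881 UMIs in Mrgprd nonpeptidergic-like neurons in Treg_Penk_KO and 17175 in control, at 397 CPM (389 to 404) and 417 CPM (410 to 423). A Lpar3 UMI was found in 74.8% of the 1055 Treg_Penk_KO neurons and in 81.4% of the 1275 control neurons, and in 59.2% of 828 and 65.4% of 1005 cells after thinning to 3000 UMIs. In the cluster of the subtype highest in satellite glia markers, the share was 60.5% in Treg_Penk_KO and 86.0% in control. That cluster had medians of 5737 and 12073 UMIs, and 78.2% and 48.9% of its cells were in shared droplets. In the other clusters the shares were 85.7% and 86.4%, 85.4% and 89.8%, 98.5% and 99.6%, and 52.5% and 51.0%. The subtype held 83.0% and 81.0% of all Lpar3 UMIs. Its clusters differed in level, with 603 and 647 CPM in the highest and 210 and 202 CPM in the lowest. Lpar5 (ENSMUSG00000067714, chromosome 6, 125044883 to 125059435, plus strand) had 1975 UMIs in the same neurons in Treg_Penk_KO and 2648 in control. That is 72.0 CPM (68.9 to 75.3) and 64.2 CPM (61.8 to 66.7), with a UMI in 49.0% and 56.6% of cells. In the cluster highest in satellite glia markers the shares with a Lpar5 UMI were 28.6% in Treg_Penk_KO and 51.1% in control. In the other clusters they were 59.2% and 63.6%, 87.0% and 81.5%, 79.3% and 80.8%, and 14.0% and 15.5%. The subtype held 83.1% and 79.0% of all Lpar5 UMIs.

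Lpar5 was more even than Lpar3 over the clusters of the subtype. It ran between 49.2 and 80.4 CPM in Treg_Penk_KO and between 50.7 and 73.8 CPM in control. Thinned Mrgprd nonpeptidergic-like neurons with a Lpar3 UMI had a Lpar5 UMI in 19.4% of Treg_Penk_KO and 17.0% of control cells, and those without had one in 14.5% and 17.2%. The share was thus higher beside Lpar3 in Treg_Penk_KO and nearly equal in control. The cluster with both Mrgprd and peptidergic markers held 12.8% of Treg_Penk_KO and 0.784% of control neurons of the subtype. Cells with UMIs of both receptors were not counted without it.

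Non-neuronal classes came next for Lpar3, far below these neurons. For Lpar5, by the mean of the libraries, macrophage-like and myelinating Schwann-like cells came next, also far below. Sst/Nppb pruriceptor-like neurons followed, at 6.24 CPM in Treg_Penk_KO and 9.54 CPM in control, above the other non-neuronal classes. Lpar3 in macrophage-like cells had 37 UMIs in Treg_Penk_KO and 78 in control, at 41.2 CPM (29.0 to 56.8) and 67.7 CPM (53.5 to 84.5). In Treg_Penk_KO the myelinating Schwann-like cells, at 48.3 CPM, and the satellite glia-like cells, at 44.6 CPM, stood above them. Lpar5 in macrophage-like cells had 13 and 22 UMIs, at 14.5 and 19.1 CPM. Mrgprd, the receptor gene that marks the subtype, was set beside them to read such levels. For every 100 Mrgprd UMIs, Lpar3 had 39.1 in Treg_Penk_KO and 46.4 in control in the Mrgprd nonpeptidergic-like neurons, 41.9 and 47.8 over the 8 non-neuronal classes, and 44.1 and 52.4 over the other 9 neuron subtypes. Lpar5 had 7.09 and 7.15 in the Mrgprd nonpeptidergic-like neurons, 7.38 and 7.36 over the non-neuronal classes, and 8.64 and 11.7 over the other neuron subtypes.

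Outside the subtype, Lpar3 and, in non-neuronal classes, Lpar5 thus kept about the same ratio to Mrgprd as within it. Those low levels are not read here as expression in the classes concerned. Single classes stood off the ratio. Lpar3 had 218 UMIs beside 440 of Mrgprd in A-beta LTMR-like neurons of Treg_Penk_KO and 198 beside 218 in control, and in Mrgpra3 pruriceptor-like neurons 37 beside 163 and 115 beside 321. In Sst/Nppb pruriceptor-like neurons Lpar5 had 32 UMIs beside 82 of Mrgprd in Treg_Penk_KO and 58 beside 74 in control. In macrophage-like cells it had 14.0 and 14.9 UMIs for every 100 of Mrgprd.

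**Figure D4:**
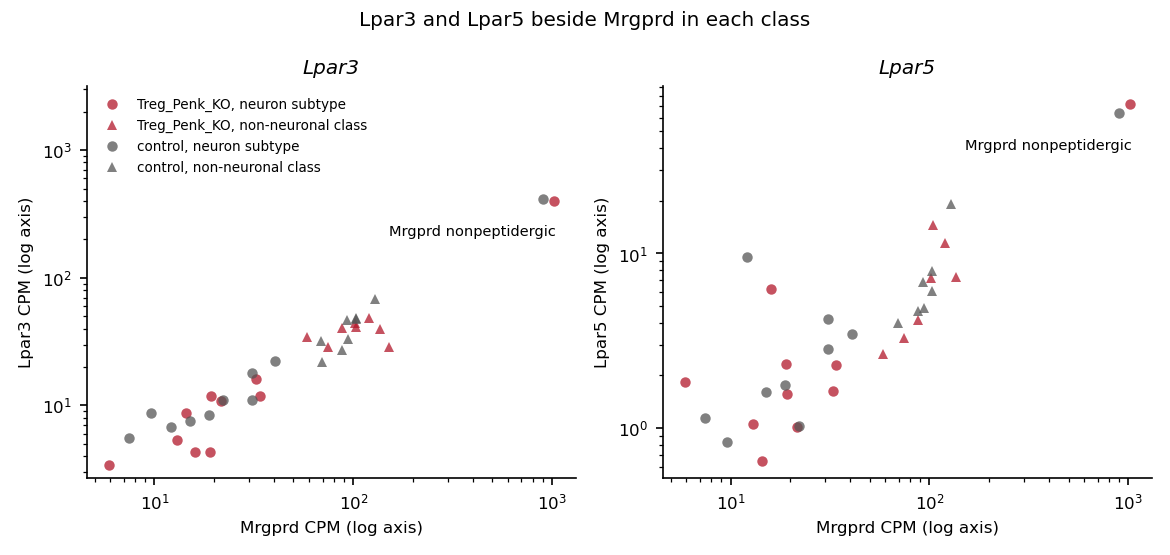
Lpar3 (left) and Lpar5 (right) against Mrgprd, in CPM on log axes, with 1 point per class and library; red is Treg_Penk_KO, grey is control, circles are neuron subtypes and triangles non-neuronal classes, and mural-like cells, with 0 Lpar5 UMIs, are not drawn on the right. The Mrgprd nonpeptidergic-like points stand alone at 397 and 417 CPM for Lpar3, and most other classes keep a similar ratio to Mrgprd.

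Between genotypes the ratio in Mrgprd nonpeptidergic-like neurons was 0.953 (0.930 to 0.976) for Lpar3 and 1.12 (1.06 to 1.19) for Lpar5. Over all neurons it was 1.03 (1.01 to 1.06) for Lpar3, from 94.4 CPM in Treg_Penk_KO and 91.2 CPM in control, and 1.19 (1.121 to 1.254) for Lpar5, from 17.2 and 14.5 CPM. With subtypes weighted equally these became 0.918 and 0.999, and Mrgprd nonpeptidergic-like neurons supplied 22.1% of neuronal UMIs in Treg_Penk_KO and 20.1% in control. Lpar5 in the subtype was 0.977 when each cell counted equally.

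**Figure D5:**
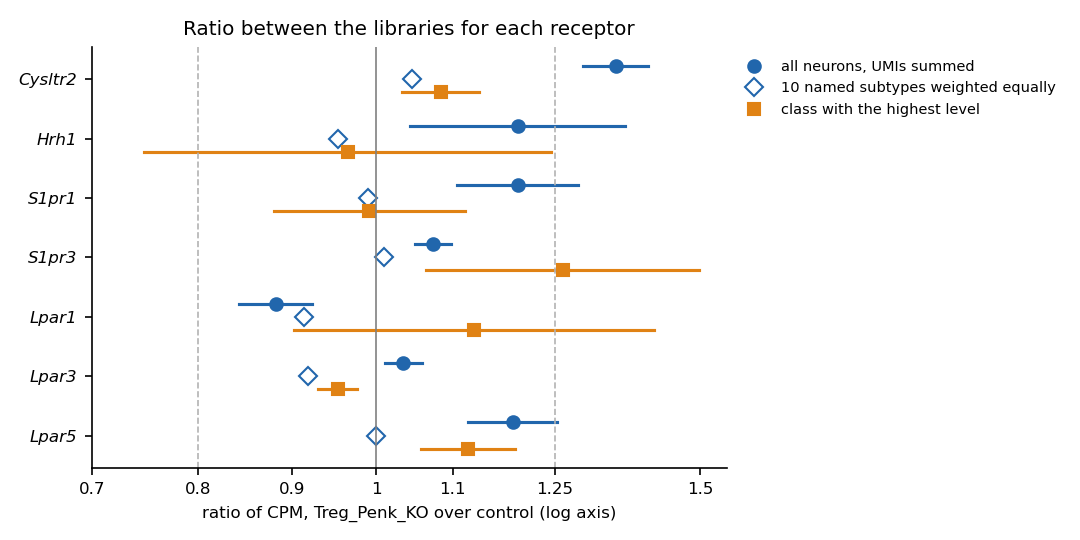
Ratio of CPM, Treg_Penk_KO over control, for each receptor on a log axis: circles pool the UMIs of all neurons, diamonds weight the 10 named subtypes equally, and squares are the class with the highest level, with 95% intervals for counting error as lines. Dashed lines mark the size step in each direction; Cysltr2 over all neurons lies at 1.35, and its equal-weight value lies at 1.05.

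Counted per cell, Sst/Nppb pruriceptor-like neurons carried the most members. After thinning to 3000 UMIs, at least 2 of the 7 receptors were seen in 36.9% of Treg_Penk_KO and 43.3% of control Sst/Nppb pruriceptor-like neurons. In Mrgprd nonpeptidergic-like neurons the shares were 23.1% and 19.1%. C-LTMR-like neurons were at the other end, with none of the 7 seen in 93.0% and 89.4% of cells.

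The genes most like each receptor over the 18 classes were found by the mean of Pearson's r in the 2 libraries on log2(CPM + 1), among 13267 genes. Classes of a library share its depth and its stray RNA, so these values describe the libraries. Nppb led for Cysltr2 (r = 0.847 in Treg_Penk_KO and 0.886 in control), followed by the oncostatin M receptor gene Osmr and Blvrb. Mrgprd (0.963 and 0.975), Prkcq and Hal were most like Lpar3, Sdc4 (0.954 and 0.938) and Col5a3 most like Lpar1, and Olfml2b (0.893 and 0.867), Inka2 and Inf2 most like S1pr3. For S1pr1 they were Podxl (0.849 and 0.867), Ankrd13a and B3gnt3, and for Lpar5 Slc14a1 (0.854 and 0.870), Fam167a and Nnat. Hrh1, with few UMIs, had lower values, led by Dyrk4 (0.661 and 0.775), Cysltr2 and Olig3. Nppb, Osmr, Mrgprd and Prkcq were among the markers used to name the classes.

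In cells that are not neurons, 0 of the 6 members with enough UMIs were past the size step in either direction, beside 4.66% of all 12199 genes higher and 1.22% lower. Hrh1, the member without enough UMIs there, had 84 in Treg_Penk_KO and 68 in control. Its ratio was 2.07 (1.48 to 2.89), the largest of the members in these cells. The median ratio of the members with enough UMIs was 1.19 in neurons, against 0.998 over all genes, and 1.09 in the other cells, against 1.01. These medians are of ratios from pooled UMIs. With the named neuron subtypes weighted equally, the ratios of the members ran from 0.914 for Lpar1 to 1.05 for Cysltr2. The part of the subtype mix in the neuronal median was not tested. Over the receptors, enzymes, transporters and effectors of these ligands, 2 of 43 genes in neurons were higher by the step and 1 was lower; their median ratio was 0.9947. Those higher were Cysltr2 and Hrh2, a Gs-coupled histamine receptor (3.05 CPM in Treg_Penk_KO and 2.28 CPM in control, ratio 1.34), and the lower was Sphk1, a kinase that makes S1P (4.77 and 7.03 CPM, ratio 0.678). All 14 G proteins and effectors with enough UMIs in neurons were within the step. In other cells 6 of 44 genes were higher and 1 lower, with a median of 1.03. The higher genes were Pla2g4a, Alox5ap and Ggt5 of leukotriene synthesis and breakdown (ratios 1.32, 1.33 and 1.45), the amine transporter gene Slc22a3 (1.41), S1pr4 (1.44) and Lpar6 (1.32), and the lower was Lpar4 (0.785). The make-up of these cells differed between the libraries: endothelial-like cells supplied 11.4% of their UMIs in Treg_Penk_KO and 7.27% in control, and macrophage-like cells 2.78% and 2.13%. Its part in the pooled ratios was not tested.

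The other receptors of the same families had other homes. Cysltr1, the second cysteinyl leukotriene receptor, was highest in macrophage-like cells, at 54.6 CPM in Treg_Penk_KO and 48.6 CPM in control. Hrh2 was highest in Sst/Nppb pruriceptor-like neurons, at 28.1 and 24.2 CPM, and Hrh3, a Gi-coupled histamine receptor, in C-LTMR-like neurons, at 34.1 and 35.2 CPM. S1pr2 was highest in fibroblast-like cells, at 86.4 and 69.4 CPM, and Lpar6 in macrophage-like cells, at 74.6 and 70.3 CPM. Lpar4 was highest in fibroblast-like cells, at 18.3 and 23.8 CPM, and S1pr4 in endothelial-like cells, at 24.2 and 22.7 CPM. The remaining 7, namely Ltb4r1, Ltb4r2, Oxgr1, Gpr17, Hrh4, S1pr5 and Lpar2, reached at most 8.91 CPM in any class compared.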

How the data were processed

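Gene expression was measured in fixed dorsal root ganglion cells by a probe-based 10x Genomics kit, with 1 pooled library per genotype. The authors deposited unnormalized UMI counts for called cells. Per the labels' protocols, reads were aligned to GRCm39 by Cell Ranger 7.0, whereas the matrix headers name version 8.0.1. Seurat is named without a role in the submitters' processing notes.

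Filters of 500 UMIs and 300 genes took out 14 Treg_Penk_KO and 20 control barcodes. Both libraries were clustered together with scanpy 1.11.5, igraph 0.11.9, scikit-learn 1.9.0, scipy 1.17.1 and numpy 2.4.6 under Python 3.11.15: counts per 10000, log, 3000 variable genes without the 21 receptor genes, 40 principal components, 15 neighbours, Leiden at resolution 1.0, and neurons again on their own. Clusters of at least 50 cells were named from marker lists of 32 cell types, and the limits of the naming score were set after clusters had been seen. Unnamed were 4 neuron clusters, of 99, 68, 23 and 12 Treg_Penk_KO and 112, 130, 37 and 14 control cells, and a cluster led by globin genes of 710 and 952 cells. Classes under 100 cells in either library, here meningeal-like cells (41 and 49), were not compared, and 18 remained. Doublets were kept, since the Scrublet call marked 1 and 0 cells. As an alternative the cells with the highest scores were removed, 1790 (14.9%) in Treg_Penk_KO and 3474 (22.1%) in control. The cut was set for each library from a doublet rate estimated from the droplet barcodes found in both libraries. Removal was thus unequal, and its part in the ratios with doublets removed was not tested.

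Levels are UMIs summed per library and class over the class total. The named genes were the members, the receptors of their families, list genes past the size step and, for each member, the 3 genes of most similar pattern, of which 1 is not reported here. Counting intervals were tested on simulated counts. Members, lists and markers were chosen with earlier results of these data known.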

Additional observations from a re-analysis of the deposited data

Results flagged for a closer look

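The following ratios of Treg_Penk_KO to control in a single class moved against or well beyond the ratio in the receptor's highest class. With 1 library per group none of these differences between classes was tested, and the intervals cover counting error only.

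Cysltr2 was at 2.315 (6.54 CPM in Treg_Penk_KO and 2.83 CPM in control) in peptidergic A-fibre-like neurons, and between 1.77 and 3.06 over the other cell selections run. In that class 1 Treg_Penk_KO cell held 27.7% of its UMIs, and Nppb, the marker of the subtype highest in Cysltr2, stood at 6.39 and 2.27 CPM. It was at 1.826 in myelinating Schwann-like cells (16.9 and 9.23 CPM), beside 23.1 and 14.1 CPM of Nppb. There Cysltr2 was at 1.45 among droplets found in 1 library, 1.925 without the top cell of each library and 2.14 with doublets removed. It was at 0.3624 in A-delta LTMR-like neurons (1.99 and 5.48 CPM, with Nppb at 0.612 and 8.41 CPM), where 1 control cell held 60% of the UMIs; without the top cell of each library the ratio was 0.686, among droplets of 1 library it was 1.39, and with doublets removed 1.30. In proprioceptor-like neurons it was at 0.2941 (1.13 and 3.85 CPM, with Nppb at 1.32 and 3.57 CPM), at 0.638 among droplets of 1 library and at 0.478 without the clusters that carry glial markers. In the same neurons it was 0.329 without the top cell of each library and 0.291 with doublets removed. Nppb thus differed in the same direction as Cysltr2 in each of these classes; its part in the ratios was not tested.

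S1pr1 was at 1.786 in peptidergic C-like neurons (12.5 CPM in Treg_Penk_KO and 6.98 CPM in control), and between 1.78 and 1.94 over the other selections. In A-delta LTMR-like neurons it was at 0.3164, from 7 and 37 UMIs, and at 0.780 with doublets removed. S1pr3 was at 1.626 in Mrgprd nonpeptidergic-like neurons (28.2 and 17.3 CPM). There the value without the cluster of mixed markers was 1.29, among droplets of 1 library 0.963, and with doublets removed 2.84. In C-LTMR-like neurons S1pr3 was at 0.5757 (13.4 and 23.2 CPM), and at 0.980 with doublets removed. Without the top cell of each library it was 0.634 there, and among droplets of 1 library 0.655.

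Lpar3 was at 1.855 in A-beta LTMR-like neurons (16.1 CPM in Treg_Penk_KO and 8.70 CPM in control), beside 32.6 and 9.58 CPM of Mrgprd. It was at 0.5299 in A-delta LTMR-like neurons (11.8 and 22.2 CPM), and at 0.304 among droplets of 1 library there. It was at 0.3913 in Mrgpra3 pruriceptor-like neurons (4.32 and 11.04 CPM), where it was 0.627 among droplets of 1 library and 0.732 with doublets removed. Without the top cell of each library it was 0.345 there. Of these, S1pr1 in peptidergic C-like neurons moved least between selections. Its ratio differed over the clusters of that subtype. It was 1.45 (25 UMIs in Treg_Penk_KO and 20 in control), 4.96 (10 and 2), 1.91 (79 and 44) and 0.180 (1 and 9).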

How the results depend on the processing

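Of 127 recomputed ratios, 93 lay inside the counting interval of the value reported and 34 outside it, and 23 lay on the other side of 1; the causes were not tested. Of the receptors, 6 of 7 kept their highest class when the receptor genes took part in clustering and at resolution 1.5, and Lpar1 went to satellite glia-like cells.

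Over all neurons, counting each cell equally gave ratios of 1.09 for Cysltr2, 0.945 for Hrh1, 1.04 for Lpar1, 0.990 for Lpar3 and 0.998 for Lpar5. Thinning cells to 500 UMIs gave 1.11 for Cysltr2, 0.897 for Hrh1, 1.07 for S1pr1, 1.18 for S1pr3, 1.21 for Lpar1 and 0.552 for Lpar5. Weighting subtypes equally gave 1.05 for Cysltr2, 0.953 for Hrh1, 0.990 for S1pr1, 1.01 for S1pr3, 0.918 for Lpar3 and 0.999 for Lpar5. Removing doublets gave 0.928 for Lpar1, 0.983 for Lpar3 and 1.11 for Lpar5, and droplets of 1 library gave 0.952 for Lpar3. Without the neuron clusters with glial markers, the values were 1.26 for Cysltr2, 1.07 for Lpar1, 0.959 for Lpar3 and 1.10 for Lpar5. The last alternative, and the one without the cluster of mixed markers, were chosen after seeing the data.

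In the highest class, counting each cell equally gave 1.03 for Cysltr2, 0.719 for Hrh1, 1.17 for S1pr1 and 0.977 for Lpar5. Thinning gave 1.16 for Cysltr2, 0 for Hrh1 (0 UMIs in Treg_Penk_KO and 6 in control) and 0.577 for Lpar5. S1pr1 in endothelial-like cells was 1.14 among droplets of 1 library and 1.12 with receptor genes in the clustering. At a size step of 1.5, the pathway genes past it were 0 in each direction in neurons and in other cells. With a minimum of 20 UMIs, 3 were higher and 4 lower in neurons, and 10 were higher and 1 lower in other cells. The share of all genes past the step at that minimum is not given, so nothing is read from these counts. No paired analysis was possible because each genotype has 1 library.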
